A study of Mus musculus with 2 samples.

Results

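Genes of 10 forebrain transcription factors, *Six3*, *Sox2*, *Pax6*, *Emx2*, *Otx1*, *Otx2*, *Lhx2*, *Sox9*, *Sox1* and *Sox3*, were followed in cultured mouse brain pericytes (PCs), out of 31053 genes listed in the files. All 10 symbols were present. The group was selected on measured values of these same libraries, because several of the genes had been seen to be high at passage 20. The difference between the libraries is therefore given as a description of these genes and not as a test. Level, share of cells and detection together within single cells were all named when the group was drawn up, and are likewise descriptions. The antisense partners and the other gene lists are not among the 10 genes, but they come from the same cells. They were also drawn up with earlier results of these data known, so they are descriptions too.

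Primary PCs were prepared, by the labels, from the pooled brains of 6 wild-type female C57BL/6N mice of 6 to 8 weeks and taken up in an endothelial growth medium. By the paper's methods that medium was replaced by a pericyte medium after the first passages. The culture at passage 5 (PC5) and the culture at passage 20 (PC20) each gave 1 droplet library of 3′ ends. The paper's methods describe 2 separate isolations and the deposited description only 1, so passage and isolation cannot be told apart. The cells are a culture without a purifying sort stated in the labels, and no adult or embryonic cells were analysed here.

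These factors act in the embryo, where the front end of the neural plate becomes forebrain and eye. SIX3, OTX2 and LHX2 are homeodomain proteins of the anterior neural plate and eye field, PAX6 and EMX2 pattern the progenitors of the cerebral cortex from opposite ends, and OTX1 works beside OTX2 in forebrain and midbrain. SOX1, SOX2 and SOX3 are the close relatives that hold neural cells in a progenitor state, while SOX9 acts in glial precursors and also widely outside the nervous system, for instance in cartilage. Brain pericytes are mural cells of capillaries and are not known for this set of factors, although the mural cells of the forebrain derive in part from neural crest.

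Positions are given on GRCm38 with GENCODE M21 gene models. *Six3* (ENSMUSG00000038805) lies on chromosome 17 from 85613608 to 85629302, *Sox2* (ENSMUSG00000074637) on chromosome 3 from 34650405 to 34652461, and *Pax6* (ENSMUSG00000027168) on chromosome 2 from 105668900 to 105697364. *Emx2* (ENSMUSG00000043969) lies on chromosome 19 from 59458372 to 59465357, *Lhx2* (ENSMUSG00000000247) on chromosome 2 from 38339281 to 38369733, and *Sox1* (ENSMUSG00000096014) on chromosome 8 from 12395295 to 12400126, all on the plus strand. *Otx1* (ENSMUSG00000005917) lies on chromosome 11 from 21994764 to 22002897 and *Otx2* (ENSMUSG00000021848) on chromosome 14 from 48657677 to 48673819, both on the minus strand. *Sox9* (ENSMUSG00000000567) lies on chromosome 11 from 112782224 to 112787760 on the plus strand, and *Sox3* (ENSMUSG00000045179) on chromosome X from 60891366 to 60893430 on the minus strand.

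The RefSeq promoter table for GRCm38.p6 matched 7 of the 10 genes. *Otx1*, *Sox9* and *Sox3* were without an entry. The 250 bases before an annotated start are shown for *Six3*, *Sox2* and *Pax6*, the 3 genes that differed most between the libraries towards PC20, and for *Lhx2*, the 1 gene that was over 2-fold higher in PC5. *Pax6* and *Lhx2* each had a further window at a start further downstream, with all 250 bases in exon of the gene. Those windows held neither of the motifs marked below and are not shown. Capitals mark 2 promoter motifs read on both strands, CCAAT and GGGCGG, which share no bases with each other in these windows. All 4 windows are written 5′ to 3′ on the plus strand, at chr17:85620584-85620833 for *Six3*, chr3:34649745-34649994 for *Sox2*, chr2:105668646-105668895 for *Pax6* and chr2:38339031-38339280 for *Lhx2*.
Six3: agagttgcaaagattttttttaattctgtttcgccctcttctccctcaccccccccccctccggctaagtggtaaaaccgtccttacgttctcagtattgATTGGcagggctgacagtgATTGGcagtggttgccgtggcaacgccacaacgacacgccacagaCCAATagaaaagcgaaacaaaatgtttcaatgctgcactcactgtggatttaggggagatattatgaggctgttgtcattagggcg
Sox2: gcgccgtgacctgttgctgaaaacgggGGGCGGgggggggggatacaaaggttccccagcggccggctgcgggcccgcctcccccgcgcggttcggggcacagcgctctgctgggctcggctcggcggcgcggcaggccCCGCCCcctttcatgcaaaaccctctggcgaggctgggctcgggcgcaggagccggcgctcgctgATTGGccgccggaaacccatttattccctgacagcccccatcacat
Pax6: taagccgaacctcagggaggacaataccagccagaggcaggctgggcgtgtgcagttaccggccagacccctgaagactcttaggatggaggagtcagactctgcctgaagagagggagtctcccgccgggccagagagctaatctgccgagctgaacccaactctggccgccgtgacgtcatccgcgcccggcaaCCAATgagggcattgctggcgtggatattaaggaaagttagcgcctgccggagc
Lhx2: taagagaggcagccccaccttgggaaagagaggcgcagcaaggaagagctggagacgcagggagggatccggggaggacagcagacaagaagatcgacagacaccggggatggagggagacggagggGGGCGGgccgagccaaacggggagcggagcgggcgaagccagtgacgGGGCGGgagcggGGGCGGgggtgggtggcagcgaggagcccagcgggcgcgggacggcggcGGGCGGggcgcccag

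The *Six3* window held 3 CCAAT motifs, *Sox2* and *Pax6* held 1 each, and *Lhx2* held none. Among 32851 RefSeq windows of this length, 33.8% held a CCAAT motif. GGGCGG was found 2 times before *Sox2* and 4 times before *Lhx2*, and in 32.7% of all windows. A TATAAA motif, present in 12.4% of all windows, was not found in any of the 4. CpG dinucleotides numbered 10 before *Six3*, 27 before *Sox2*, 15 before *Pax6* and 25 before *Lhx2*, against a median of 6 over all windows. None of the 4 windows held an annotated exon of its own gene. The *Six3* window lies inside the GENCODE gene, whose longest model starts further upstream, and 44 of its bases are exon of the antisense gene *Gm28528*. These matches describe the letters only.

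Barcodes were kept as cells if over 1000 genes had a count and mitochondrial genes gave below 20% of it, which left 9950 of 10629 in PC5 and 4749 of 4884 in PC20. A UMI (unique molecular identifier) tags 1 captured RNA molecule, and levels are given as CPM, the UMIs of a gene summed over the kept cells and scaled to a total of 1000000. The libraries held 223054273 and 191122251 UMIs, with a median of 21700 UMIs per cell in PC5 and 33424 in PC20. Since PC20 cells were deeper, shares of cells with a UMI are given as read and again after each cell was thinned to 10500 UMIs, which kept 8847 and 4474 cells. Parentheses hold exact 95% intervals, Poisson for CPM, Clopper-Pearson for shares and conditional binomial for log2 ratios, and they reflect counting error alone. Since each passage has 1 library, the passages were not tested against each other. Of 12 genes of other lineages that a pericyte culture should lack, such as *Csf1r* of microglia and *Hbb-bs* of red blood cells, none had a UMI in more than 0.531% of thinned PC5 cells or 0.0671% of thinned PC20 cells. *Cx3cr1*, a further microglia gene that is not among the 12, was higher, in 2.23% and 0.291%. Shares at or under these limits, with that of *Cx3cr1* included, are not read as expression across the culture. The libraries shared 20 barcodes, and the PC5 cells with these barcodes held no *Six3* or *Sox2* UMI.

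The pericyte label was checked against 12 pericyte genes, which summed to 101 CPM in PC5 and 13.7 CPM in PC20. Of the 9 with at least 20 UMIs, 7 were at least 2-fold higher in PC5, as were 26.1% of all 15911 genes with so many UMIs, and 1 in PC20, as were 19.6% of all. At passage 5 *Rgs5*, *Vtn* and *Kcnj8* had 405, 20 and 13 UMIs, and at passage 20 none was seen. PC20 cells are called here by their passage and not by a cell type.

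Of the 10 genes, *Six3*, the anterior forebrain and eye field gene, stood furthest apart between the libraries. It had 104 UMIs in PC5, or 0.466 CPM (0.381 to 0.565), and 36965 in PC20, or 193 CPM (191 to 195). The log2 ratio of PC20 over PC5 was 8.70 (8.42 to 8.99). Cells with a *Six3* UMI made up 0.382% of PC5 (0.270 to 0.524) and 92.7% of PC20 (91.9 to 93.4). After thinning the shares were 0.237% and 79.5% (78.2 to 80.6). The PC5 share lies under the limit from the other lineages, while most PC20 cells held several molecules, with a median of 6 UMIs per cell and an interquartile range of 3 to 10. In rank, *Six3* was gene 634 by level in PC20 and gene 12560 in PC5. By the ratio of PC20 over PC5 it was gene 103 of the 15911 with at least 20 UMIs in both libraries together.

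*Sox2*, of the neural progenitor group, had 96 UMIs in PC5 and 12774 in PC20. Its level was 0.430 CPM (0.349 to 0.526) at passage 5 and 66.8 CPM (65.7 to 68.0) at passage 20, and the log2 ratio was 7.28 (6.99 to 7.58). The share of cells with a *Sox2* UMI was 0.392% in PC5 and 75.8% in PC20, and 0.249% and 45.9% (44.5 to 47.4) after thinning. The median PC20 cell held 2 *Sox2* UMIs.

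*Pax6*, of cortical and eye progenitors, had 49 UMIs in PC5 and 4782 in PC20, or 0.220 CPM (0.163 to 0.290) and 25.0 CPM (24.3 to 25.7). Its log2 ratio was 6.83 (6.43 to 7.27). Cells with a *Pax6* UMI were 0.432% of PC5 and 48.6% of PC20, or 0.136% and 20.0% (18.9 to 21.2) after thinning. Unlike *Six3*, *Pax6* was at 0 in the median PC20 cell.

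*Otx1* had 19 UMIs in PC5 and 446 in PC20, or 0.0852 CPM (0.0513 to 0.133) and 2.33 CPM (2.12 to 2.56), a log2 ratio of 4.78 (4.12 to 5.52). It was a sparse gene in both libraries, with a UMI in 0.181% of cells at passage 5 and 8.46% at passage 20, or 0.0791% and 2.17% (1.76 to 2.64) after thinning. No PC20 cell held more than 3 *Otx1* UMIs.

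*Emx2* was the only homeobox gene of the group whose thinned share in PC5 passed the limit from the other lineages. PC5 held 683 *Emx2* UMIs, or 3.06 CPM (2.84 to 3.30), and PC20 held 1867, or 9.77 CPM (9.33 to 10.2), which gives a log2 ratio of 1.67 (1.55 to 1.80). The share of cells was 6.23% in PC5 and 23.7% in PC20, and 3.40% (3.03 to 3.80) and 9.25% (8.42 to 10.1) after thinning.

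*Sox9* was at nearly the same level in both. Its level was 232 CPM (229.6 to 234) at passage 5 against 206 CPM (203 to 208) at passage 20, and the log2 ratio was -0.17 (-0.19 to -0.15). The share of cells with a *Sox9* UMI was 84.7% and 87.0%, and 76.5% (75.6 to 77.4) and 68.0% (66.6 to 69.4) after thinning, so the order of the shares turns with depth. The median cell held 4 *Sox9* UMIs in either library.

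*Lhx2* was the 1 gene of the group that was over 2-fold higher in PC5. PC5 held 54 *Lhx2* UMIs in 28 cells, or 0.242 CPM (0.182 to 0.316), and PC20 held 1 UMI in 4749 cells, or 0.00523 CPM (0.000132 to 0.0292). The log2 ratio of PC20 over PC5 was -5.53 with a wide interval of -10.9 to -2.99. *Otx2*, *Sox1* and *Sox3* each had 1 UMI in PC5 and 0 in PC20, which allows a share of up to 0.0632% of PC20 cells for a UMI, and no ratio is given. *Otx2*, the partner of *Otx1*, and the 2 *Sox2* relatives were thus not detectable in PC20 at a depth that gave 12774 UMIs for *Sox2* itself.

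Of the 7 genes with at least 20 UMIs in both libraries together, 5 were at least 2-fold higher in PC20 and 1 was at least 2-fold higher in PC5. Of the 15911 genes that passed the same minimum, 19.6% were at least 2-fold higher in PC20 and 26.1% at least 2-fold higher in PC5. The group was chosen on this contrast, so nothing is read from the difference between these shares. The median log2 ratio was 4.78 over the 7 genes and -0.11 over all 15911. Across the cell sets and scalings tried, the *Six3* log2 ratio lay between 7.89 and 9.55 and that of *Sox2* between 6.38 and 8.57, and the 5 genes kept their direction.

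**Figure D1:**
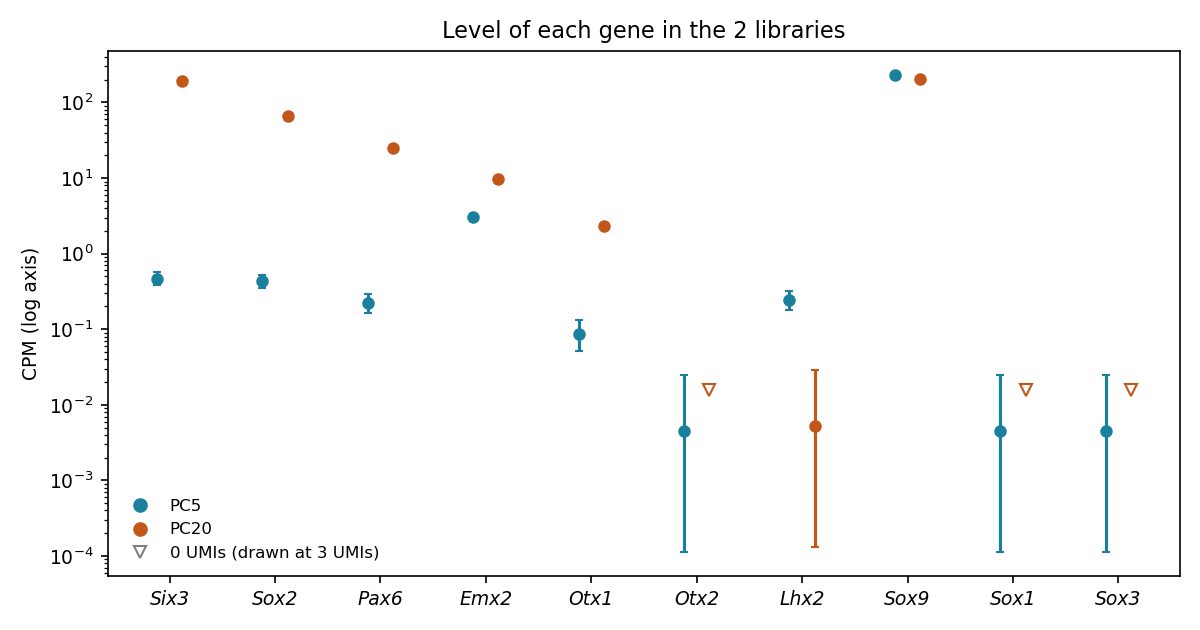
Level of each of the 10 genes in PC5 and PC20 as CPM on a log axis, with exact 95% Poisson intervals as bars (smaller than the point where not visible) and open triangles for 0 UMIs, drawn at the level of 3 UMIs. *Six3*, *Sox2*, *Pax6* and *Otx1* are 0.466 CPM or lower in PC5 and between 2.33 and 193 CPM in PC20, *Sox9* is above 200 CPM in both, and *Lhx2* is higher in PC5.

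Within PC20 the levels fell in the order *Sox9*, *Six3*, *Sox2*, *Pax6*, *Emx2*, *Otx1*, with no neighbours whose counting intervals overlapped. UMIs of a 3′ library count RNA ends, so they were not divided by gene length. By share of thinned cells the order began instead with *Six3* and then *Sox9*. The *Sox9* RNA was less evenly spread, with up to 129 UMIs in a cell against 86 for *Six3*. In PC5 the order was *Sox9*, *Emx2*, *Six3*, *Sox2*, *Lhx2*, *Pax6*, *Otx1*. There the intervals of *Six3* and *Sox2* overlapped, as did those of *Lhx2* and *Pax6*.

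The *Six3* level varied little with how deeply a PC20 cell was read. In 4 groups of cells of equal size, from the shallowest to the deepest, *Six3* stood at 195, 179, 198 and 196 CPM, while the share of cells with a UMI rose from 78.5% to 99.7%. *Sox2* was similar, at 69.9, 64.1, 66.9 and 67.2 CPM. *Pax6* was lower in the 2 shallower groups, at 18.1 and 18.6 CPM, than in the 2 deeper ones, at 27.6 and 27.5 CPM. *Sox9* ran from 284 CPM in the shallowest group to 181 CPM in the deepest. Nearly every PC20 cell of the deepest group held *Six3*.

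PC20 cells usually held several of the 10 RNAs at once. After thinning, 1828 of 4474 PC20 cells (40.9%, 39.4 to 42.3) had UMIs of 3 or more of the genes, against 17 of 8847 PC5 cells (0.192%, 0.112 to 0.307). Without thinning the shares were 79.8% and 0.372%. The typical PC5 cell held *Sox9* alone, as did 6493 cells or 73.4%. The most frequent combinations in PC20 were *Six3* with *Sox9* in 20.1% of cells and *Six3*, *Sox2* and *Sox9* together in 18.7%, and 185 cells or 4.14% held none of the 10.

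**Figure D2:**
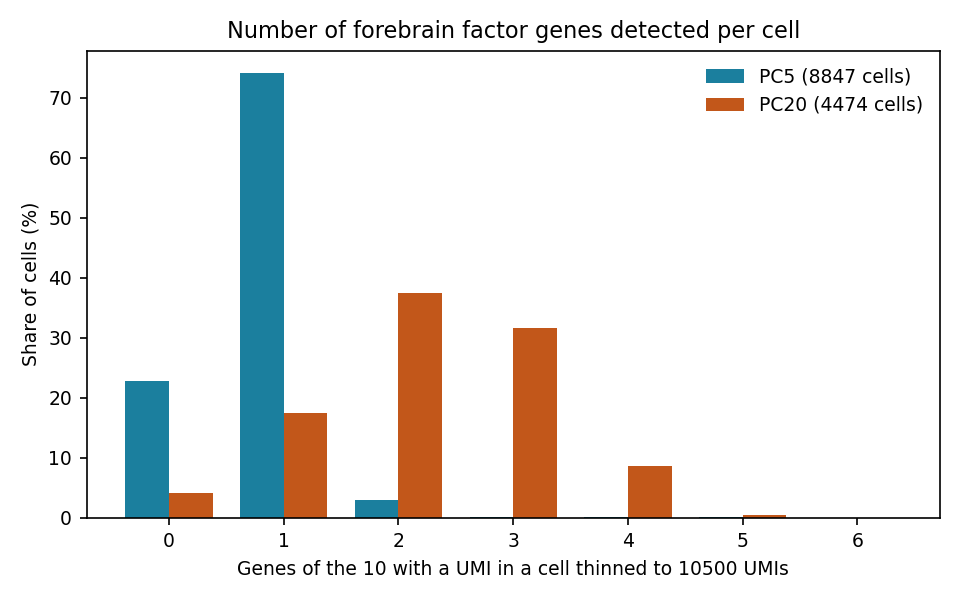
Share of cells (%) by the number of the 10 genes with a UMI, in cells thinned to 10500 UMIs, with bars for 8847 PC5 and 4474 PC20 cells. PC5 peaks at 1 gene with 74.1% of cells and PC20 at 2 genes with 37.5%, followed by 3 genes with 31.7%.

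In PC20 most pairs of the genes were found together in a number of cells near that which their shares alone would give. Among the 6 genes seen in at least 1% of thinned PC20 cells there are 15 pairs, and 10 pairs were found in the same cell more often than the product of the shares. The ratio of observed to product ran from 0.668 to 1.34 with a median of 1.02. It cannot exceed the inverse of the share of the commoner gene, which holds it near 1 for pairs with *Six3* or *Sox9*, so shares with and without a partner are also given. *Six3* and *Sox2* were both found in 1672 cells where the product gives 1633, and a *Sox2* UMI was present in 47.0% of cells with *Six3* (45.4 to 48.7) and 41.7% of cells without it (38.5 to 44.9). *Pax6* was present in 21.2% of cells with *Six3* (19.8 to 22.5) and 15.7% without (13.4 to 18.2), and *Sox9* in 69.9% with (68.3 to 71.4) and 60.7% without (57.5 to 63.9). With another random draw of UMIs these 3 pairs again had intervals apart, for *Sox9* at 68.1 to 71.2% with *Six3* and 56.8 to 63.1% without. In that draw the count was 14 of 15 pairs, and the lowest ratio, for *Emx2* with *Otx1*, moved from 0.668 to 1.20. In cells with and in cells without a UMI of the mitotic genes *Mki67* or *Top2a*, only the *Sox9* intervals stayed apart in both sets. *Sox2* intervals overlapped in both, at shares of 51.3% with *Six3* and 46.6% without in the first set, and 41.1% and 35.7% in the second. *Pax6* intervals overlapped in the second set only, at 15.3% with *Six3* and 11.3% without. All 3 shares were still higher with *Six3* in both sets, which hold fewer cells each. Over all UMIs all 15 pairs were above the product, with ratios of 1.03 to 1.28, where depth varies between cells. Pairs that changed side with the draw are not read as a link or an avoidance.

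*Sox2*, *Sox9* and *Pax6* were seen more often in cells with more *Six3*. From thinned PC20 cells with no *Six3* UMI to those with 5 or more, the share with *Sox2* went from 41.7% (38.5 to 44.9) to 56.8% (51.9 to 61.6) and the share with *Sox9* from 60.7% (57.5 to 63.9) to 76.0% (71.6 to 80.0). The share with *Pax6* went from 15.7% (13.4 to 18.2) to 24.5% (20.4 to 28.9). *Emx2* was at 8.81% (7.06 to 10.8) and 6.89% (4.66 to 9.74) in the same cells. Outside the group, the keratin gene *Krt18* went from a mean of 8.93 to 11.6 thinned UMIs between these cells. The midbrain and hindbrain gene *En1* was in 22.0% (19.3 to 24.8) and 25.4% (21.3 to 29.9), with intervals that overlap. A rise with *Six3* was thus not limited to genes of the group. Across the 4474 cells, which share 1 library, Pearson's *r* of log UMIs was 0.09 between *Six3* and *Sox2* and 0.19 between *Six3* and *Sox9*, which is weak.

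**Figure D3:**
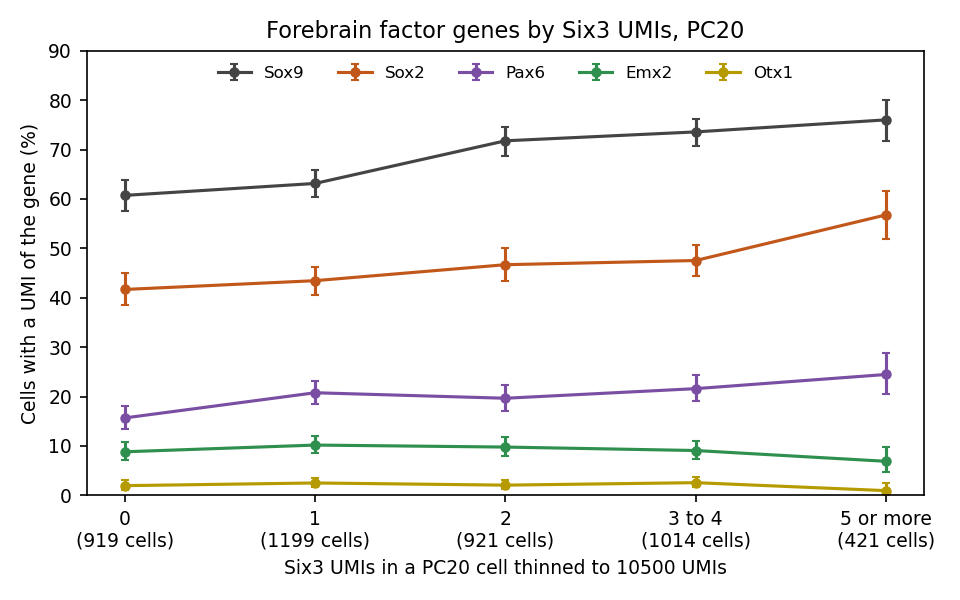
Share of PC20 cells (%) with a UMI of *Sox9*, *Sox2*, *Pax6*, *Emx2* or *Otx1* by the number of *Six3* UMIs in the cell, after thinning to 10500 UMIs, with exact 95% intervals as bars. *Sox9*, *Sox2* and *Pax6* are higher in the 421 cells with 5 or more *Six3* UMIs than in the 919 cells with none, while the intervals of *Emx2* and *Otx1* overlap.

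The genes differed in how they went with the cell cycle. In thinned PC20 cells with a UMI of the mitotic genes *Mki67* or *Top2a* (2570 cells), *Sox2* was present in 50.4% (48.4 to 52.3), against 39.9% (37.7 to 42.2) of the 1904 cells without. *Pax6* was present in 24.2% (22.5 to 25.9) and 14.4% (12.9 to 16.1). *Six3* was present in 80.5% (78.9 to 82.0) and 78.1% (76.2 to 79.9), and *Sox9* in 67.3% (65.5 to 69.1) and 68.9% (66.8 to 71.0), with intervals that overlap for both. By the S-phase gene *Pcna*, *Sox9* was lower, in 63.4% (60.4 to 66.4) of cells with a UMI and 69.4% (67.8 to 70.9) without. By *Mki67* alone the *Sox9* intervals were just apart, at 63.39 to 67.81% and 67.83 to 71.37%, and by *Top2a* alone they overlapped. The 3 genes most like *Pax6* across cells were *Cenpf*, *Hmmr* and *Ccna2*, all of G2 and mitosis, with *r* of 0.22, 0.21 and 0.21. Those most like *Sox2* were *Mki67*, *Hmgb2* and *Calm2*, with *r* of 0.13 each. These values are over 4474 cells and 7295 genes seen in at least 10% of them, and are low. The share of cells with 3 or more of the 10 genes was 34.9% among the cells without *Mki67* or *Top2a*.

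*Sox9* went with another set of genes. Those most like it were *Nr1d1*, a clock repressor, *Nfkbia*, the inhibitor of NF-κB, and *Mt1*, a metallothionein, with *r* of 0.45 each. *Sox9* was present in 79.8% (77.7 to 81.7) of the 1583 PC20 cells with an *Nfkbia* UMI and 61.5% (59.7 to 63.3) of the others, at means of 3.99 and 1.52 thinned UMIs. *Mt1* was also the gene most like *Six3*, with *r* of 0.26, followed by *Cdkn1b* and *Klf9* with 0.21 each. *Six3* was present in 84.3% (82.4 to 86.1) of cells with *Nfkbia* and 76.8% (75.2 to 78.3) of those without.

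*Emx2* was less frequent in PC20 cells where certain structural genes were high, and not only there. With an *Nfkbia* UMI it was found in 7.52% (6.27 to 8.93) of cells, against 10.2% (9.12 to 11.4) without. It was found in 5.39% (4.15 to 6.88) of the 1131 cells with a UMI of *Ogn*, a small matrix proteoglycan, and 10.6% (9.54 to 11.7) of those without. In cells above the median for *Vim*, the intermediate filament of mesenchymal cells, it was found in 6.92% (5.90 to 8.07), against 11.5% (10.2 to 12.9) below. *Six3* was slightly more frequent above the *Vim* median, in 81.5% (79.8 to 83.1) of cells against 77.5% (75.7 to 79.2). In the 814 cells with a UMI of *Acta2*, the smooth muscle actin gene, both *Emx2* and *Sox9* were less frequent. *Emx2* was found in 6.51% (4.91 to 8.43) of them and 9.86% (8.92 to 10.9) of the others, and *Sox9* in 61.9% (58.5 to 65.3) and 69.3% (67.8 to 70.8).

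The antisense RNA of *Emx2* was detected with *Emx2*. *Emx2os* overlaps the start of *Emx2* by 264 bases on the opposite strand. PC5 held 533 *Emx2os* UMIs (2.39 CPM) and PC20 held 1782 (9.32 CPM), so that the log2 ratio was 1.96, against 1.67 for *Emx2*. Both were found in 72 thinned PC20 cells where the product of the shares gives 35.4, and in 17 PC5 cells where it gives 7.42. *Emx2os* was present in 17.4% of PC20 cells with *Emx2* and 7.64% of those without. Whether the counting used strand is not given in the sources used here, and if it did not, reads in the 264 shared bases could count for either gene.

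Other partners were rare. *Gm28528*, antisense to *Six3*, was at 0 UMIs in PC5 against 35 in PC20, and *Pax6os1*, antisense to *Pax6*, at 0 against 10, with the same limit on strand. *Six3os1*, which overlaps the start of *Six3* by 4791 bases on the opposite strand, and *Sox2ot*, which holds *Sox2* in the same direction, were not analysed here. UMIs of *Sox2ot* from the bases of *Sox2* cannot be told apart from *Sox2*. Those of *Six3os1* could count for *Six3* only in the shared bases, with the same limit on strand.

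The few *Six3* and *Sox2* molecules of PC5 lay in few cells. Of the 104 *Six3* UMIs, 67 were in 12 cells with 4 or more each, and 22 cells held both *Six3* and *Sox2*, where the product of the shares gives 0.149 cells. These 22 cells carried 73 *Six3*, 67 *Sox2* and 33 *Lhx2* UMIs. Summed over them the level was 201 CPM for *Six3* and 184 CPM for *Sox2*, against 203 and 78.9 CPM in the 3477 PC20 cells that also held both. Because the cells were picked for these UMIs, both levels are raised by the choice. Of the 28 PC5 cells with *Lhx2*, 23 held *Six3* or *Sox2*.

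By shares that were not thinned, the 22 PC5 cells and the 3477 PC20 cells shared some further genes and not others. *Sox9* was present in 22 of 22 and in 91.6%, but also in 84.6% of the PC5 cells with neither factor. *Otx1* was present in 3 of 22 (13.6%, 2.91 to 34.9) and in 9.52%, at 11.0 and 2.32 CPM. *Gad2*, which makes GABA, was present in 8 of 22 (36.4%, 17.2 to 59.3) and in 29.4%, at 33.0 and 16.4 CPM. *Lhx2* was present in 15 of the 22 (68.2%, 45.1 to 86.1) and in 1 of the 3477 PC20 cells, *Emx2* in 14 (63.6%, 40.7 to 82.8) and 26.5%, and *Pax6* in 2 (9.09%, 1.12 to 29.2) and 55.4%. The oligodendrocyte and astrocyte genes *Olig1*, *Fabp7*, *Aqp4* and *Gfap* were found in 11, 8, 9 and 5 of the 22 cells, and in PC20 cells with both factors only 1 *Aqp4* UMI was seen among the 4 genes. The keratin gene *Krt18*, present in 3477 of 3477 such PC20 cells, and the midbrain and hindbrain gene *En1*, present in 64.0%, were in 0 of 22. *Cdkn2a*, the senescence and cell cycle inhibitor gene, was in 22 of 22 and in 1 of 3477. *Col1a2*, the collagen gene, was in 19 of 22 and in 7 of 3477. These genes set the libraries apart as a whole, since in the 9895 PC5 cells with neither factor *Cdkn2a* was in 98.4%, *Col1a2* in 98.2%, *En1* in 0.445% and *Krt18* in 0.222%. The 22 cells were shallow, with a median of 12795 UMIs against 21711 in those 9895 cells and 38857 in the 3477 PC20 cells. Shares in the 2 sets are therefore not at like depth. No doublets were removed, and the part of doublets in these cells was not tested.

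A UMI of any of 6 glial genes (*Fabp7*, *Olig1*, *Olig2*, *Gfap*, *Aqp4* and *Gjb6*) was found in 13 of the 22 cells and in 55 of the 9895. Of the 2 not given above, *Olig2* was in 8 of the 22 cells. *Gjb6* was in 0 of the 22 cells (0 to 15.4%) and in 17 of the 9895 (0.172%), which gives no direction. Leaving out the 76 PC5 cells and the 1 PC20 cell with such a UMI, a choice made after seeing the data, removed 47 of 104 *Six3* and 57 of 96 *Sox2* UMIs from PC5. The log2 ratio then was 9.55 for *Six3* and 8.57 for *Sox2*. In PC20 the defining glial genes were at 0 UMIs for *Gfap*, *Fabp7*, *Olig1* and *Olig2*.

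**Figure D4:**
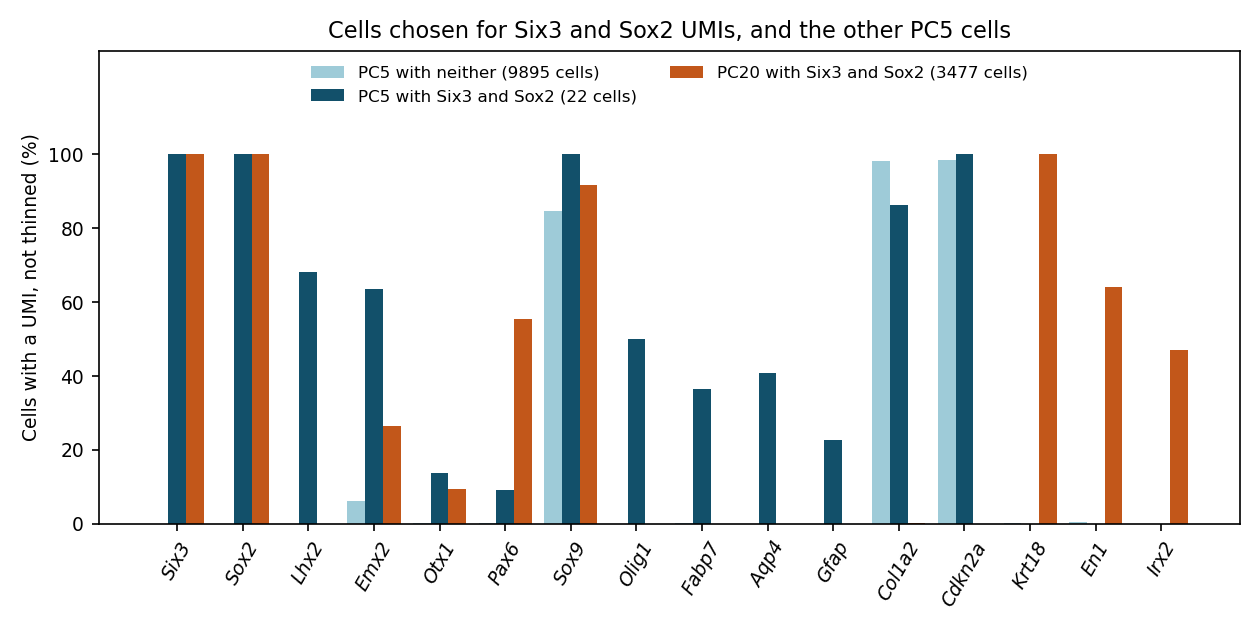
Share of cells (%, not thinned) with a UMI of each gene in PC5 cells with neither *Six3* nor *Sox2*, PC5 cells with both and PC20 cells with both. *Six3* and *Sox2* are at 100% in the last 2 sets by the choice of cells, *Lhx2*, *Olig1*, *Fabp7*, *Aqp4* and *Gfap* stand out in the 22 PC5 cells, and *Krt18*, *En1* and *Irx2* in the 3477 PC20 cells.

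Of the other forebrain and eye field genes reported here, more were lower than higher in PC20. The counts are of a list without genes that were left out after their values were seen, which moves its median away from 0. Of 31 such transcription factor genes, 17 had at least 20 UMIs, and of these 3 were at least 2-fold higher in PC20, against 19.6% of all genes, and 10 in PC5, against 26.1%. The log2 ratio had a median of -1.28 in these genes against -0.11 over all genes. The nuclear receptor genes *Nr2f1* and *Nr2f2* stood at 204 and 224 CPM at passage 5 and at 94.5 and 79.4 CPM at passage 20. Genes of the ventral forebrain went both ways. *Dlx2* and *Lhx6* stood at 9.38 and 8.74 CPM at passage 5 and at 0.523 and 0.680 CPM at passage 20, while *Dlx5* went from 0 UMIs at passage 5 to 170 at passage 20, with 1 and 14 for *Dlx6*. *Six6*, the eye field relative of *Six3*, had 5 and 182 UMIs, and its PC20 share of thinned cells was 0.760%.

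Genes of more posterior neural regions summed to more in PC20, at 64.9 CPM against 5.93 CPM in PC5. Of 23 midbrain, hindbrain and spinal factor genes in the files, 10 had at least 20 UMIs, 6 of them at least 2-fold higher in PC20 (19.6% of all genes) and 4 in PC5 (26.1%). Their median log2 ratio was 3.26. *En1* was at 0.224 CPM in the PC5 library and 27.4 CPM in that of PC20, *Irx5* at 0.610 and 15.9 CPM, and *Irx2* had 1 UMI in PC5 and 3147 in PC20. *En1* at 27.4 CPM was close to the 25.0 CPM of *Pax6*. Of 12 relatives of the group in the *Six3*, *Pax6*, *Emx2*, *Otx1* and *Lhx2* families with at least 20 UMIs, again without genes left out, 6 were at least 2-fold higher in PC20 and 5 in PC5. These counts are not separate from those above. *Six6*, *Lhx5*, *Lhx6* and *Lhx9* are also in the forebrain list, and *Pax3* and *Pax5* in the posterior list. *Six2* and *Six4* had 0.0672 and 5.95 CPM at passage 5 and 15.1 and 31.1 CPM at passage 20, while *Six5* had 2.07 CPM and 1.00 CPM and *Pax1* 680 UMIs and 1 UMI. Of 10 other SOX genes with at least 20 UMIs, 1, *Sox6*, was at least 2-fold higher in PC20 and 6 in PC5, and *Sox4*, the most abundant, had 275 and 179 CPM.

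**Figure D5:**
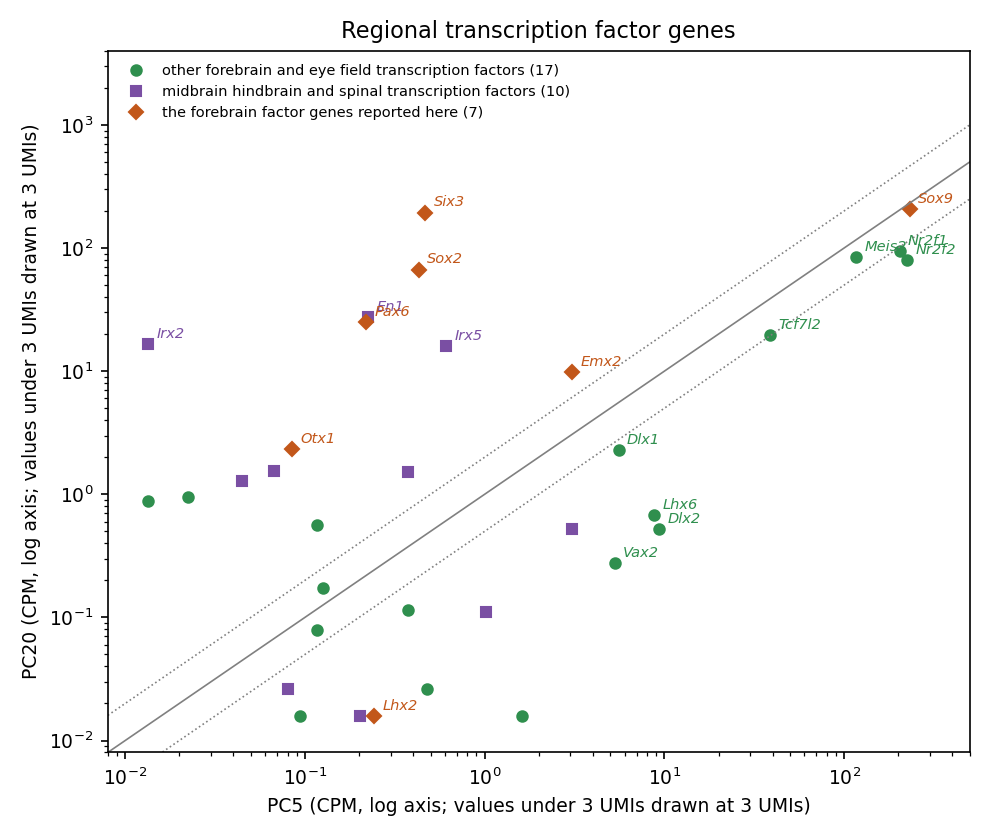
CPM in PC5 (x axis) and PC20 (y axis), both log axes, for regional transcription factor genes with at least 20 UMIs in both libraries together, with the solid line at equal levels and dotted lines at 2-fold. *Six3*, *Sox2*, *Pax6* and *Otx1* lie with *En1*, *Irx2* and *Irx5* above the upper dotted line, and *Sox9* lies near the solid line.

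Few progenitor and astrocyte genes were at least 2-fold higher in PC20, while neuron genes went both ways. Of 14 neural progenitor and radial glia genes with at least 20 UMIs, 0 were at least 2-fold higher in PC20, against 19.6% of all genes, and 8 in PC5, against 26.1%. *Nes*, the intermediate filament gene of progenitors, stood at 65.1 CPM at passage 5 and 47.5 CPM at passage 20. *Zic1* had 15177 UMIs in PC5 and 0 in PC20. Of 12 astrocyte genes with at least 20 UMIs, 1 was at least 2-fold higher in PC20 and 9 in PC5, against the same shares of all genes. The 1 was *Aldoc*, at 94.9 CPM against 9.93 CPM in PC5. *Slc4a4*, a bicarbonate transporter gene, stood at 229 CPM in PC20 against 143 CPM at passage 5, and the whole astrocyte list summed to 294 and 419 CPM. Of 6 neuron genes with at least 20 UMIs 2, *Gad2* and *Map2*, were at least 2-fold higher in PC20, against 19.6% of all genes. In PC5 3 were at least 2-fold higher, against 26.1%. *Gad2* was at 0.256 CPM and 16.4 CPM, and the neuron list summed to 108 and 24.9 CPM.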

How the data were processed

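The data are droplet RNA libraries of PC cultures from mouse brain, 1 each at passages 5 and 20, and were grouped by the passage in their titles. The deposited values are raw counts of UMIs per gene and barcode, which the authors made with Cell Ranger (5.0 in the processing notes, 5.0.1 in the file header) on mm10 without normalization. The cell filter of the paper's methods was applied (over 1000 genes, mitochondrial share below 20%). No doublets were removed.

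CPM came from UMIs summed over kept cells, so deeper cells weigh more. Shares were also counted in cells thinned to 10500 UMIs. A count of 0 was given an upper limit of 3 counts. No test between passages was possible with 1 library each. The deposited counts do not say whether strand was used. The 10 genes and all gene lists were chosen with earlier results of these data known. All 10 genes are named, the 3 genes most like a member by Pearson's *r* of log UMIs, and from lists the most abundant genes or those a sentence needs. The PC5 cells with both *Six3* and *Sox2*, *Gm28528* and the 6 glial genes were singled out after their values were seen. Scripts ran in Python 3.11.15 with numpy 2.4.6 and scipy 1.17.1 and were tested on simulated libraries. Promoter sequences are from RefSeq on GRCm38.p6. From the lists of related factors, 2 genes were left out after their values were seen and are not reported here, which moves the median of the forebrain list away from 0.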

Additional observations from a re-analysis of the deposited data

Results flagged for a closer look

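UMIs of 4 of the genes were also found above the limit that a count of 0 allows in barcodes that the cell filter left out. These barcodes entered only the alternative with all barcodes. The 135 such barcodes of PC20, with a median of 1079 UMIs, held 12 *Six3*, 9 *Sox2*, 12 *Pax6* and 18 *Sox9* UMIs. The level of *Six3* there was 65.2 CPM (33.7 to 114), below the 193 CPM of kept cells, and that of *Pax6* was 65.2 CPM (33.7 to 114), above the 25.0 CPM of kept cells. The 679 such barcodes of PC5 held 131 *Sox9* UMIs, or 142 CPM (119 to 168), and 2 *Six3* UMIs.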

How the results depend on the processing

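No paired analysis was possible because each passage has 1 library, and for the same reason no library could be left out. The number of genes at least 2-fold higher in PC20 was 5 under each of the 10 alternatives tried, which were other cell filters, all barcodes, cells with neither *Mki67* nor *Top2a*, thinning, other scalings, cells without glial gene UMIs (added after seeing the data), no deepest 1% of cells and minimums of 1 or 100 UMIs. The share of PC20 cells with 3 or more genes was 79.8% without thinning and 34.9% in cells without *Mki67* or *Top2a*, against 40.9%. Pairs above the product of their shares numbered 8 to 15 of 15. No log2 ratio changed sign, and *Lhx2* gave none in cells without *Mki67* or *Top2a*, where PC20 held no UMI. The mean over cells of scaled UMIs gave 7.89 for *Six3* and 6.38 for *Sox2*, and cells without *Mki67* or *Top2a* gave 6.53 for *Sox2* and 6.03 for *Pax6*. Thinned cells gave 7.46 for *Pax6* and -3.54 for *Lhx2*, whose mean over cells gave -7.01. The cause of these shifts was not tested. Thinned cells hold fewer UMIs, and thinning left out 1103 PC5 and 275 PC20 cells as too shallow. For *Lhx2* the thinned ratio rests on 1 UMI in PC20 and 23 in PC5. Depth limits *Otx2*, *Lhx2*, *Sox1* and *Sox3*, which rest on 1 or 0 UMIs in PC20.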
